A study of Mus musculus with 6 samples.

Results

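The ABC transporters of the mouse colon were taken as every gene of the deposited table whose symbol is Abc, a subfamily letter from a to g, and a number with an optional letter. The rule found 49 of the 18477 genes in the table: 16 in subfamily A, 9 in B, 10 in C, 4 in D, 1 in E, 3 in F and 6 in G. Of these, 41 had enough reads to be among the 14579 genes tested. Family members with other symbols, such as Cftr, Tap1 and Tap2, lie outside the rule and are given beside it. The colon RNA came from C57BL/6 mice, each sequenced as 1 library, and every mouse drank 2% (w/v) dextran sulfate sodium (DSS) in water from day 8 to day 14 of the study. DSS is a chemical that injures the colon epithelium. The DSS group (n = 3) was gavaged with PBS and the DSS+BV group (n = 3) with the gut bacterium *B. vulgatus* in PBS, once a day for 14 days, starting at 6 to 8 weeks of age. All 6 libraries come from mice with DSS, so every difference below is between 2 groups with colitis treatment, and no altered gene is named for either group. The comparison asks how the colon transcriptome of mice with DSS differs when *B. vulgatus* is given.

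ABC transporters are proteins with a pair of ATP-binding domains that power the movement of lipids, drugs, bile acids, metals or peptides across a membrane. Subfamily A moves mainly lipids, and subfamily B holds the drug pump P-glycoprotein, the bile salt pump and mitochondrial transporters. Subfamily C holds the multidrug resistance proteins and the sulfonylurea receptors of potassium channels, and most of subfamily D imports fatty acids into peroxisomes. Members of E and F are not transporters but soluble proteins that act on ribosomes and translation, and subfamily G moves sterols and drugs. In the gut, P-glycoprotein and Abcg2 sit on the luminal face of enterocytes and return drugs and plant compounds to the lumen.

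Values are given as CPM, the normalised read count relative to a library total scaled with TMM factors, and 3 values in a row are those of mouse 1, 2 and 3 of a group. Log2 fold changes compare DSS+BV with DSS, with their standard error (SE). Groups were compared in edgeR (quasi-likelihood test, Benjamini-Hochberg adjustment over all tested genes), and a gene was called at an adjusted p under 0.05 with an absolute log2 fold change over 1. Library totals lay between 15293276 and 17254343 expected counts. A count of 0 allows up to 3 counts, which is 0.175 to 0.198 CPM depending on the library, by counting error alone. All 5 colon identity genes (Cdx1, Cdx2, Muc2, Lgals4 and Car1) were above 0 in every library. The libraries did not group by treatment over all tested genes: one cluster held DSS+BV 1 with DSS 1 and DSS 3, the other held DSS 2 with the remaining DSS+BV libraries. Many members followed that order, which is given with them below. Several cell type lists also differed between the groups. The summed level of 10 epithelial markers was 12329 to 14169 CPM in the DSS group and 15405 to 20354 CPM in the DSS+BV group, and that of 7 neutrophil markers was 130 to 165 CPM and 10.6 to 22.7 CPM. In bulk tissue, fewer cells of a type and less RNA per cell cannot be told apart.

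Levels between genes were compared per length, as CPM per kb of exon. P-glycoprotein's main intestinal gene Abcb1a ranked first, with a mean of 115.7 CPM per kb over the 6 mice and a range of 23.5 to 248. Abcd3, a peroxisomal transporter of branched-chain and other fatty acids, came next with a mean of 84.1 and a range of 49.2 to 141 CPM per kb. Abcc3, an exporter of conjugated bile acids and glucuronides on the basal side of epithelium, followed with 61.4 and a range of 33.7 to 89.6. These ranges overlap, so the order of the first 3 is not set by their means beyond the spread between mice. The soluble members Abcf1, Abce1 and Abcf2 followed, with means of 36.5, 34.1 and 22.2 CPM per kb. The highest members of subfamilies A and G were Abca3, a phospholipid transporter of lamellar bodies, at 15.9, and Abcg2, the breast cancer resistance protein, at 12.9 CPM per kb. At the low end of the tested members, Abca13 and Abcc2 stayed under 0.3 CPM per kb in every mouse.

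**Figure D1:**
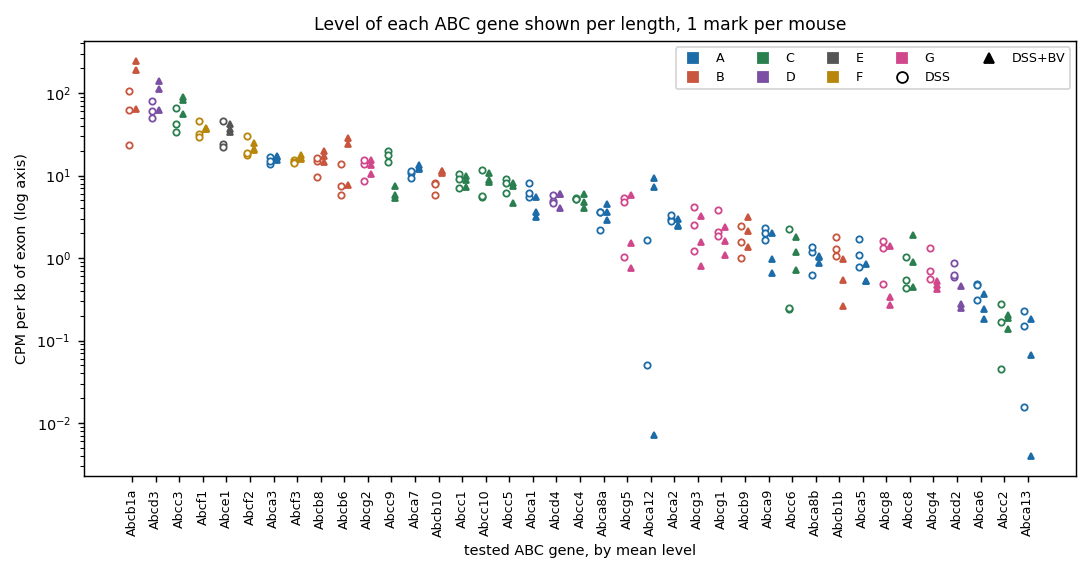
Level of 39 of the 41 tested ABC genes in CPM per kb of exon on a log axis, ordered by the mean over 6 mice, with 1 mark per mouse (open circles DSS, triangles DSS+BV) and colour by subfamily. Abcb1a, Abcd3 and Abcc3 lead, and the marks of Abca12, Abca13, Abcb1a and Abcc6 spread widely. Abca12 in DSS 1 was at 0 and is not drawn.

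The 8 members that were not tested were close to absent. Abca16 was at 0 counts in all 6 libraries, and Abca4, Abca14, Abca15, Abca17 and Abcc12 were at or under 0.815 CPM in each. The hepatocyte genes Abcb11, the bile salt export pump, and Abcb4, a phosphatidylcholine exporter of bile, were at 0 to 0.316 and 0.249 to 0.828 CPM. These genes were left out of the main edgeR fit, so no change in them was tested there, and counts this low leave little room to read one. Abca14 was lower in every DSS+BV mouse, at 4 to 14 counts per library.

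None of the 41 tested members was called in either direction (edgeR adjusted p over all genes), where 0.0892% of all tested genes were called lower and 0% higher. With DESeq2 in place of edgeR, Abcc9 was the 1 member called, in the lower direction, against 1.73% of genes called lower and 0.279% called higher. At an unadjusted p under 0.05, 5 members were lower (Abcc9, Abcd2, Abca1, Abcb1b and Abca5) and 1 was higher (Abcb10). These are 12.2% and 2.44% of the tested members, where 9.12% of all tested genes were lower and 3.4% higher, 12.5% in either direction. The balance of directions depended on the setting, with 5 lower and 5 higher in DESeq2, and 1 to 6 lower and 1 to 8 higher in edgeR when 1 library was left out. The groups did not overlap for 9 members (22%, against 17.6% of all tested genes). Of these, 5 were lower in every DSS+BV mouse (Abca1, Abcb1b, Abcc9, Abcd2 and Abcg4; background 11.3%) and 4 were higher (among them Abca7, Abcb10 and Abcf3; background 6.37%). An absolute log2 fold change over 1 was fitted for 6 members (14.6%, against 9.29%): Abca12, Abcb1a and Abcb6 above 0, and Abcb1b, Abcc9 and Abcd2 below it. No test was made of these shares.

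Subfamilies differed in the side of 0 on which most of their genes lay. Over all tested genes the median log2 fold change was -0.0105 and 51.5% were below 0, and over the 41 members the median was 0.057 with 19 below 0. Subfamily G had the lowest median, -0.55, with 5 of 6 genes below 0, and subfamily A had -0.19 with 7 of 11 below 0. DESeq2 was run without the read filter and gave a subfamily A median of -0.59 over a different set of genes. That set adds the near-absent Abca4, Abca14, Abca15 and Abca17, with DESeq2 log2 fold changes of -1.04, -0.62, -0.85 and -0.44. Subfamily B had the highest median, 0.42, with 1 of 7 below 0. The medians of C, D, E and F were 0.12, 0.056, 0.29 and 0.069. These are descriptions of small lists, no test was run on them, and with 1 library left out the median of G ran from -1.04 to -0.23 that of B from 0.33 to 0.69, that of A from -0.28 to -0.049 and that of E, which is 1 gene, from 0.10 to 0.69, while those of C and F were on both sides of 0. The summed level shows where the reads lay. Subfamily B summed to 292, 738 and 435 CPM in the DSS mice and to 511, 1207 and 1513 CPM in the DSS+BV mice, with Abcb1a as its largest member. The groups overlapped through DSS 2 and DSS+BV 1. Subfamily D, most of it Abcd3, ran from 242 to 341 CPM in the DSS group and from 289 to 565 CPM in the DSS+BV group, and subfamily C from 484 to 734 and from 505 to 695 CPM. Subfamilies A, F and G also overlapped between the groups, at 281 to 349.5, 184 to 269.7 and 94.2 to 152 CPM in the DSS mice and at 330.5 to 373, 220.3 to 238 and 96.2 to 109.9 CPM in the DSS+BV group.

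**Figure D2:**
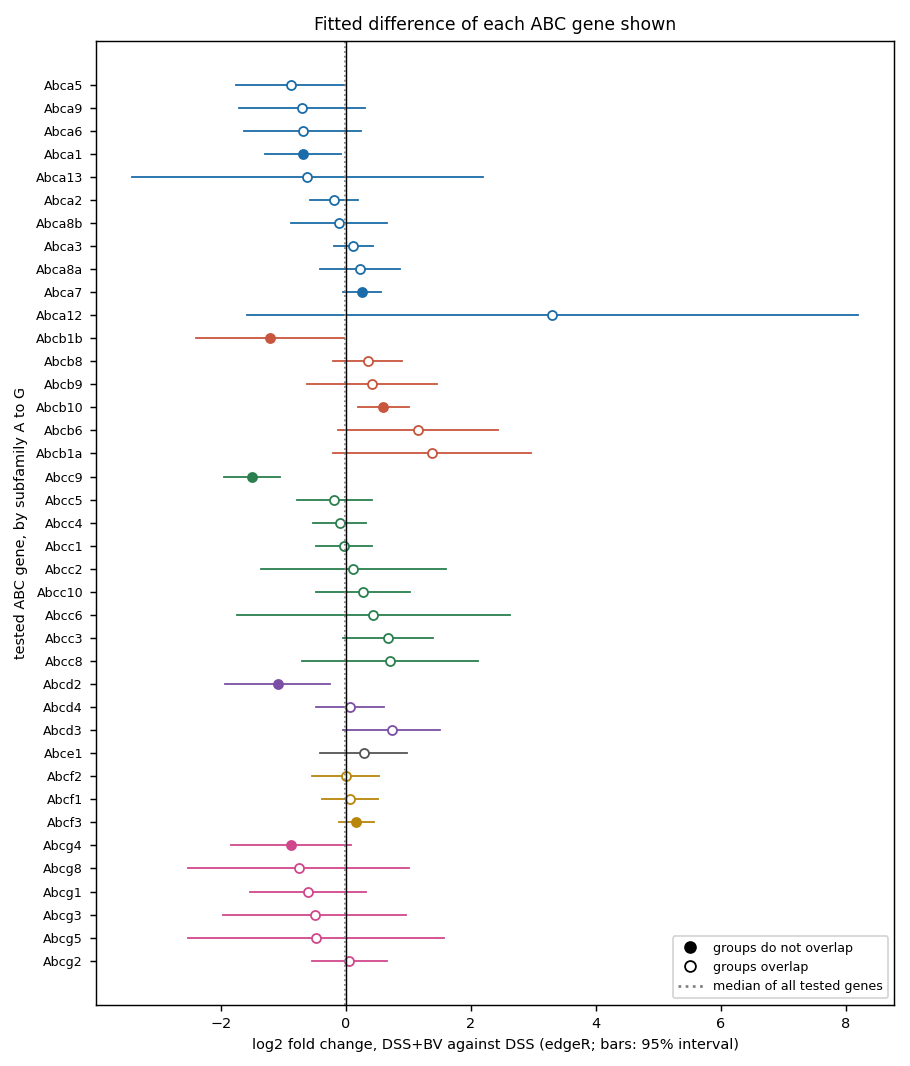
Fitted log2 fold change of 39 tested ABC genes (DSS+BV against DSS, edgeR, bars 95% interval), by subfamily A to G from the top, with filled points where the 2 groups of 3 mice do not overlap. Abcc9 at -1.50 has the interval farthest below 0, and the widest bar is that of Abca12, whose levels ran from 0 to 86.6 CPM.

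Abcc9 encodes SUR2, the sulfonylurea receptor that surrounds the pore of ATP-sensitive potassium channels in smooth muscle and pericytes. It was at 122, 168 and 148 CPM in the DSS mice and at 48.1, 62.4 and 44.9 CPM in the DSS+BV mice. Every DSS+BV mouse was below every DSS mouse, with means of 146 ± 23.0 and 51.8 ± 9.31 CPM (SD, n = 3 each). The log2 fold change was -1.50 (SE 0.19) with an edgeR adjusted p of 0.0833, and the 95% interval ran from -1.95 to -1.05. DESeq2 gave -1.48 with an adjusted p of 4.52e-08, so the call depends on the tool. With any 1 library left out, the edgeR estimate stayed between -1.65 and -1.37, with adjusted p-values from 0.113 to 0.370.

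Kcnj8 encodes Kir6.1, the pore with which SUR2 assembles in vessels, and the 2 genes are neighbours. Abcc9 lies on the minus strand at chr6:142587862-142702766 of GRCm38.p6, and Kcnj8 lies 16247 bases away on the same strand. Kcnj8 was at 40.8, 53.3 and 75.2 CPM in the DSS mice and at 17.7, 20.9 and 15.2 CPM in the DSS+BV group. Like Abcc9 it was lower in every DSS+BV mouse, with a log2 fold change of -1.65 (SE 0.26, edgeR adjusted p = 0.128; DESeq2 adjusted p = 1.08e-05). Over the 6 libraries, the ratio of Abcc9 to Kcnj8 in CPM was between 1.97 and 3.15, while each gene alone varied more than that. Both ends of that range fell in the DSS group, where Kcnj8 was highest in DSS 3 and Abcc9 in DSS 2. The other pair of the family is Abcc8, which encodes SUR1 of endocrine and neuronal cells, and its pore gene Kcnj11. Abcc8 was at 2.1, 4.97 and 2.62 CPM in the DSS group and 2.18, 4.4 and 9.29 CPM in the DSS+BV group, overlapping, and Kcnj11 was at 0.479 to 1.12 and 0.528 to 1.39 CPM.

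Markers of the cells that hold these channels were read beside Abcc9. The 6 pericyte markers, Kcnj8 among them, summed to 267 to 574 CPM in the DSS group and 229 to 295 CPM in the DSS+BV group. Of these, Pdgfrb and Kcnj8 were lower in every DSS+BV mouse, while Rgs5, Cspg4, Notch3 and Higd1b overlapped. Over the 5 pericyte markers tested, the median log2 fold change was -0.68, with 4 fitted below 0 and 1 above 0. Pdgfrb had a log2 fold change of -0.68, and Cspg4 and Notch3 had 0.028 and -0.19. The 8 smooth muscle markers overlapped, at 3555 to 4425 and 2754 to 4251 CPM in sum, with a median log2 fold change of -0.11 and none separated. The 9 endothelial markers summed to 313 to 440 and 230 to 308 CPM (median -0.62, 3 of 9 lower in every DSS+BV mouse), the 8 fibroblast markers to 1199 to 1838 and 664 to 1012 CPM (median -0.66, 1 of 8), and the 8 markers of enteric neurons and glia to 55.2 to 202 and 38.7 to 41.4 CPM (median -1.64, 6 of 8). None of these markers was at 0 in any library. Their part in the Abcc9 difference was not tested.

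Abcb1a and Abcb1b encode the mouse forms of P-glycoprotein. The genes lie in tandem on the plus strand of GRCm38.p6, Abcb1a at chr5:8567091-8748575 and Abcb1b at chr5:8798147-8866314, 49571 bases apart, and the values of both are estimates because RSEM divided some reads that match more than 1 gene. The 250 bases before each annotated start are shown because neighbours with like proteins differed here in level and in direction (RefSeq, plus strand). Capitals mark CCAAT, the letters of the CCAAT box, on either strand.
Abcb1a, chr5:8566841-8567090: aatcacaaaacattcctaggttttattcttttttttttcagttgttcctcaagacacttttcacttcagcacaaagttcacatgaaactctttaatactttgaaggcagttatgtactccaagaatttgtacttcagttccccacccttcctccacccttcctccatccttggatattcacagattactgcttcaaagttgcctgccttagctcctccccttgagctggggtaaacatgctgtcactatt
Abcb1b, chr5:8797897-8798146: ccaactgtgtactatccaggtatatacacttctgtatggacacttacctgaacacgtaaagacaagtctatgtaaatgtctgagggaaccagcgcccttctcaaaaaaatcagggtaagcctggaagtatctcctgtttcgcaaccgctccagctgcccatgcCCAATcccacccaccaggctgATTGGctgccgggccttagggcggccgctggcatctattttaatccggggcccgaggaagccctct
Abcb1b has 2 matches and Abcb1a none before these starts. Whether the colon transcripts begin at these starts was not tested. Of 32851 RefSeq promoters, 33.8% hold at least 1 CCAAT in such a window and 10.1% hold 2 or more, so a match is common, and it says nothing of a factor bound there.

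Abcb1a was at 117, 537 and 309 CPM in the DSS mice and at 317, 952 and 1238 CPM in the DSS+BV mice. The groups overlapped, since DSS+BV 1 lay with DSS 3 and below DSS 2. The log2 fold change was 1.38 (SE 0.66, edgeR adjusted p = 0.449). Abcb1b was far lower and moved the other way, at 5.51, 4.54 and 7.75 CPM in the DSS group and 4.22, 2.36 and 1.14 CPM in the DSS+BV group. Each DSS+BV mouse was below each DSS mouse, at a log2 fold change of -1.2 (SE 0.50, unadjusted p = 0.0469 and adjusted p = 0.396 with edgeR). Within a library, Abcb1a had 21.2, 118 and 40.0 times the CPM of Abcb1b in DSS 1, 2 and 3 and 75, 400.2 and 1114 times in DSS+BV 1, 2 and 3. Abcb1a alone took 6.31% of all ABC reads in DSS 1 and 34.5% in DSS+BV 3. The ratio was highest in DSS+BV 3 and lowest in DSS 1, and DSS 2 lay above DSS+BV 1.

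Among the other drug and conjugate exporters, Abcg2 was flat, at 50.1, 80.8 and 88.9 CPM in the DSS group and 60.9, 89.7 and 77.9 CPM in the DSS+BV group (log2 fold change 0.057, 95% interval -0.54 to 0.66). Abcc3 was at 208, 331 and 169 CPM and at 279, 408 and 449 CPM, with a log2 fold change of 0.68 (SE 0.30, edgeR adjusted p = 0.419), and DSS 2 lay above DSS+BV 1. The broadly expressed glutathione conjugate exporter Abcc1 had a log2 fold change of -0.023, and Abcc4, an exporter of cyclic nucleotides and prostaglandins, had -0.099. Their 95% intervals ran from -0.47 to 0.43 and from -0.52 to 0.33. Abcc2, the apical relative of Abcc3, was near the lower limit at 0.359 to 2.21 CPM. Of Abcc5, Abcc6 and Abcc10, Abcc6 varied most between mice, from 1.2 to 11.3 CPM within the DSS group alone. For most exporters the spread between mice was thus as wide as the difference between groups.

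Partner genes of the members were read from lists. Over all lists, which also cover sterol handling, channel pores, peroxisomes, lysosomes and ribosomes, 39 of 40 genes were tested. None was called with edgeR (background 0.0892% lower and 0% higher), and 7 were higher and 1 lower at an unadjusted edgeR p under 0.05 (background 3.4% and 9.12%). At that p, the list of 9 regulators of drug handling had 2 higher and 0 lower. The list of 7 anion and bile acid carriers also had 2 higher and 0 lower. Hnf4a, a nuclear receptor of intestinal epithelium, was at 514, 708 and 525 CPM in the DSS group and 803, 1019 and 908 CPM in the DSS+BV group, higher in every DSS+BV mouse (log2 fold change 0.64, edgeR adjusted p = 0.329). Nfe2l2, the regulator of antioxidant genes, had 0.60 and overlapped, and the pregnane X receptor Nr1i2, a regulator of P-glycoprotein genes, had 0.22. Slc51a, a subunit of the basolateral bile acid carrier, was at 0.120, 7.34 and 0.699 CPM and at 0.066, 105 and 218 CPM. Slc51b, of the same carrier, overlapped at 4.73, 8.21 and 10.5 CPM and at 5.94, 9.87 and 13.2 CPM (log2 fold change 0.31). The apical bile acid carrier Slc10a2 was at 37.5, 7.34 and 11.1 CPM and at 5.80, 99.6 and 188 CPM. Slc51a and Slc10a2 were high in DSS+BV 2 and DSS+BV 3 and not in DSS+BV 1. The organic anion carrier Slco4a1 had a log2 fold change of 1.04 (edgeR adjusted p = 0.361) and was higher in every DSS+BV mouse. Slco3a1 of the same list went the other way, with -0.58 (edgeR adjusted p = 0.425), and was lower in every DSS+BV mouse. Slco2a1 and Slco2b1 had -0.24 and -0.026 and overlapped. The chloride channel Cftr was at 53.4, 186 and 20 CPM in the DSS group and 141, 136 and 126 CPM in the DSS+BV group, and the peptide transporters Tap1 and Tap2 had log2 fold changes of -0.063 and -0.16.

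**Figure D3:**
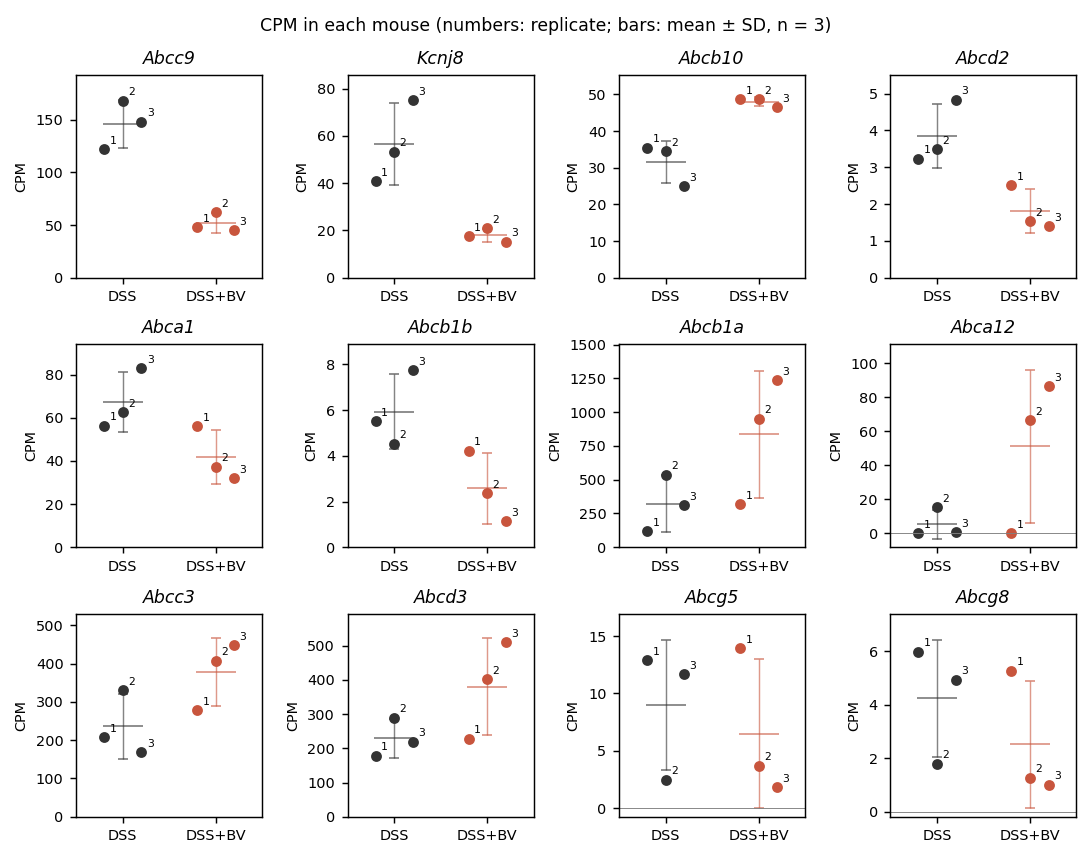
CPM of 11 ABC genes and of Kcnj8 in each mouse (black DSS, red DSS+BV, numbers give the replicate, bars mean ± SD, n = 3). Abcc9, Kcnj8, Abcd2, Abca1 and Abcb1b are lower in every DSS+BV mouse and Abcb10 is higher; in the panels of Abcb1a, Abca12, Abcc3 and Abcd3 DSS+BV 1 lies within the range of the DSS group.

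Abca1 and Abcg1 export cholesterol to lipoproteins and are classic targets of the liver X receptors, in macrophages above all. Abca1 was at 56.3, 62.5 and 82.9 CPM in the DSS mice and at 56.2, 37.4 and 31.9 CPM in the DSS+BV group. All DSS+BV mice were below all DSS mice, though DSS+BV 1 and DSS 1 were nearly equal. Its log2 fold change was -0.68 (SE 0.25, unadjusted p = 0.0327 and adjusted p = 0.371 with edgeR). Abcg1 was at 14.1, 12.6 and 26.0 CPM and at 16.2, 7.45 and 10.9 CPM, overlapping, with a log2 fold change of -0.61 (SE 0.39). The 10 macrophage markers summed to 616 to 1292 CPM in the DSS group and 335 to 766 CPM in the DSS+BV group, with a median log2 fold change of -0.89, 3 of 10 lower in every DSS+BV mouse and none at 0, and their part in Abca1 and Abcg1 was not tested. The liver X receptor gene Nr1h3 had a log2 fold change of -0.53 and Nr1h2 had -0.095, and both overlapped.

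Of the 11 tested partner genes of sterol handling, 7 were fitted below 0 and 4 above 0, and none was called. The sterol regulators Srebf1 and Srebf2 had 0.45 and 0.49 and the lysosomal cholesterol transporter Npc1 had 0.53, each higher in every DSS+BV mouse with an unadjusted edgeR p under 0.05. The other lysosomal cholesterol gene, Npc2, had -0.078 and overlapped. Apoe, a lipoprotein component, and Mylip, which marks lipoprotein receptors for breakdown, had -0.80 and -0.56 and also overlapped. The HDL receptor Scarb1 had -0.35 and was lower in every DSS+BV mouse (unadjusted p = 0.0563).

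Abcg5 and Abcg8 encode the 2 subunits of the sterol transporter that returns cholesterol and plant sterols to the gut lumen. They are read in opposite directions. Abcg5 (chr17:84658174-84683011, minus strand) and Abcg8 (chr17:84676302-84700333, plus strand) overlap, since 1 annotated start of Abcg8 lies within Abcg5. Shown here are the bases between the start of Abcg5 and another annotated start of Abcg8, the nearest one outside Abcg5 (RefSeq, GRCm38.p6, plus strand). Capitals mark AGATAA, the letters of a GATA motif, on either strand.
Abcg5 and Abcg8, chr17:84683012-84683120: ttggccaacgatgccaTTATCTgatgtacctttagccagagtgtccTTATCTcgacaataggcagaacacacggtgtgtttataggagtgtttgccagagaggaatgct
The 109 bases hold 2 matches, and 3.98% of RefSeq promoters hold at least 1 and 0.186% hold 2 or more in a window of that length. The motif and the stretch were picked for this locus, whereas the shares are for windows before single starts. The matches say nothing of a factor bound there. Abcg5 was at 12.9, 2.49 and 11.6 CPM in the DSS mice and at 13.9, 3.70 and 1.83 CPM in the DSS+BV mice. Abcg8 was at 5.99, 1.80 and 4.95 CPM and at 5.28, 1.27 and 1.01 CPM. Both genes were high in DSS 1, DSS 3 and DSS+BV 1 and low in the other 3 libraries, so the groups overlapped. The ratio of Abcg5 to Abcg8 in CPM stayed between 1.38 and 2.90. Their log2 fold changes were -0.48 and -0.75 (SE 0.86 and 0.74). With 1 library left out, Abcg5 ran from -1.69 (without DSS+BV 1) to -0.029 (without DSS+BV 3) and Abcg8 from -1.87 to -0.37, with the same libraries left out. Abcg4, a sterol transporter mainly of brain, was at 2.28, 2.86 and 5.47 CPM and at 1.91, 2.17 and 1.71 CPM, lower in every DSS+BV mouse, with DSS 1 and DSS+BV 2 close to each other (log2 fold change -0.87, edgeR adjusted p = 0.434). The mouse gene Abcg3 had a log2 fold change of -0.50 and overlapped.

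The rest of subfamily A moves phospholipids and other lipids. Abca7, which handles phospholipids in phagocytes and other cells, was at 72.2, 63.6 and 76.7 CPM in the DSS mice and at 80.1, 84.5 and 90.1 CPM in the DSS+BV group. The DSS+BV mice were higher throughout, by a log2 fold change of only 0.26 (SE 0.13, edgeR adjusted p = 0.449). Abca5, Abca6, Abca8a, Abca8b and Abca9 form one cluster on chromosome 11. Abca5 was at 6.35, 8.89 and 13.9 CPM and at 4.35, 4.4 and 7.02 CPM, which is -0.88 on the log2 scale (SE 0.37, unadjusted p = 0.0481 and adjusted p = 0.398 with edgeR), and DSS+BV 3 lay above DSS 1. Abca6 and Abca9 had -0.69 and -0.70, Abca8b had -0.11 and Abca8a had 0.23, so members of the cluster were fitted on both sides of 0. Abca2 and Abca3 had log2 fold changes of -0.19 and 0.12, with 95% intervals from -0.57 to 0.20 and from -0.19 to 0.43.

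Abca12, a lipid transporter best known from the skin barrier, was at or near 0 in 3 mice and high in others. It was at 0, 15 and 0.466 CPM in the DSS mice and at 0.066, 66.4 and 86.6 CPM in the DSS+BV mice. The value in DSS+BV 1 rests on 1 count, and it lies below 2 of the DSS mice. The log2 fold change was 3.31 (SE 2.05, edgeR adjusted p = 0.544), and it ran from 2.69 to 7.72 with 1 library left out. Abca13 went the other way across the same libraries, at 3.65, 0.249 and 2.39 CPM and at 2.97, 1.08 and 0.063 CPM, the last of these also 1 count.

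Abcb6, Abcb8 and Abcb10 are known as transporters of mitochondria, in haem and iron metabolism. Abcb10, of the inner membrane, was at 35.4, 34.4 and 24.9 CPM in the DSS mice and at 48.7, 48.7 and 46.6 CPM in the DSS+BV group. The DSS+BV mice lay close together and above every DSS mouse, with means of 31.6 ± 5.81 and 48.0 ± 1.2 CPM (SD, n = 3 each). The log2 fold change was 0.60 (SE 0.17, unadjusted p = 0.00975 and adjusted p = 0.313 with edgeR), and DESeq2 gave an adjusted p of 0.0767. Abcb8 had 0.35 and overlapped. Abcb6 had 1.16 (SE 0.54, edgeR adjusted p = 0.434), at 22.2, 41.0 and 17.3 CPM and at 22.6, 72.4 and 84.8 CPM, but 93.6% of its exon bases are shared with an overlapping gene model on the same strand, Gm29253, so its reads are uncertain. The lysosomal peptide transporter Abcb9 had 0.42 and overlapped. All 6 tested genes of subfamily B apart from Abcb1b were thus fitted above 0, beside epithelial markers that were fitted above 0 in 10 of 10 genes and separated in 5 of 10, and the part of epithelial content was not tested.

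Of the peroxisomal transporters, Abcd3 was at 178, 289 and 219 CPM in the DSS mice and at 228, 403 and 510 CPM in the DSS+BV group, with a log2 fold change of 0.73 (SE 0.33, edgeR adjusted p = 0.423). DSS+BV 1 lay between DSS 2 and the other DSS mice. Abcd2, which takes up very long-chain fatty acids and is typical of brain and fat, was low, at 3.23, 3.48 and 4.83 CPM and at 2.51, 1.53 and 1.39 CPM. It was lower in every DSS+BV mouse, with a log2 fold change of -1.09 (SE 0.35, unadjusted p = 0.0189 and adjusted p = 0.341 with edgeR). The 5 adipocyte markers overlapped, at 26.2 to 58.1 and 21.6 to 45.1 CPM in sum, with Adipoq, Plin1 and Lep at 0 in at least 1 library. The 8 markers of enteric neurons and glia summed to 55.2 to 202 and 38.7 to 41.4 CPM. Of these 8, 6 were lower in every DSS+BV mouse (background 11.3%). The part of these cell types in the Abcd2 difference was not tested. Abcd4, which exports cobalamin from lysosomes with Lmbrd1, had a log2 fold change of 0.063. Lmbrd1 itself had -0.061, and none of the 4 partner genes of peroxisomes and lysosomes was separated.

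The soluble members act on ribosomes. Abce1, which splits ribosomes after termination, was at 174, 91.8 and 84.6 CPM in the DSS mice and at 138, 159 and 129 CPM in the DSS+BV group, which is 0.29 on the log2 scale with a 95% interval from -0.41 to 0.98. DSS 1 was above all other mice for Abce1, Abcf1 and Abcf2. Abcf1 and Abcf2 had 0.069 and -0.0014. Abcf3 was at 48.1, 45.4 and 43.9 CPM and at 49.3, 54.7 and 50.6 CPM, higher in every DSS+BV mouse but by a log2 fold change of 0.17 (SE 0.12, edgeR adjusted p = 0.584). The partners Pelo, Hbs1l and Etf1 had 0.082, 0.13 and 0.16 and overlapped.

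The order of the libraries recurred across members. DSS 2, DSS+BV 2 and DSS+BV 3 held the 3 highest values for 11 members, namely Abca12, Abcb1a, Abcb6, Abcb8, Abcb9, Abcc3, Abcc6, Abcc8, Abcc10, Abcd3 and Abcd4. The same libraries held the 3 lowest values for 7 members, Abca2, Abca13, Abcg1, Abcg3, Abcg5 and Abcg8 among them. By comparison, 9 members had all mice of one group above all mice of the other. The share of all tested genes with DSS 2, DSS+BV 2 and DSS+BV 3 highest or lowest was not counted. The libraries also clustered this way over all tested genes, and whether the family differs from other genes in this order was not tested. The 6 surface colonocyte markers summed to 4500, 9293 and 9250 CPM in the DSS mice and to 6471, 10231 and 11495 CPM in the DSS+BV mice, and Ceacam1 made up most of that sum in every library. The members of this list did not share an order: Car4, Slc26a3 and Aqp8 were lowest in DSS+BV 3, at 223, 146 and 71.1 CPM, where Ceacam1 and Guca2a were highest, at 9480.1 and 765 CPM. Of the 5 colon identity genes, Cdx2, Muc2 and Car1 had their 3 highest values in DSS 2, DSS+BV 2 and DSS+BV 3, and Cdx1 and Lgals4 did not. B cell and plasma cell markers (6 genes) ran the other way, at 656, 552 and 1613 CPM and at 1119, 267 and 245 CPM, and 6 T cell markers were at 13.5 to 39.1 CPM in the DSS group and 11.3 to 32.1 CPM in the DSS+BV group. This grouping of libraries was read from the data and is no group of the study, so no test was made on it, and the part of these cell types was not tested.

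**Figure D4:**
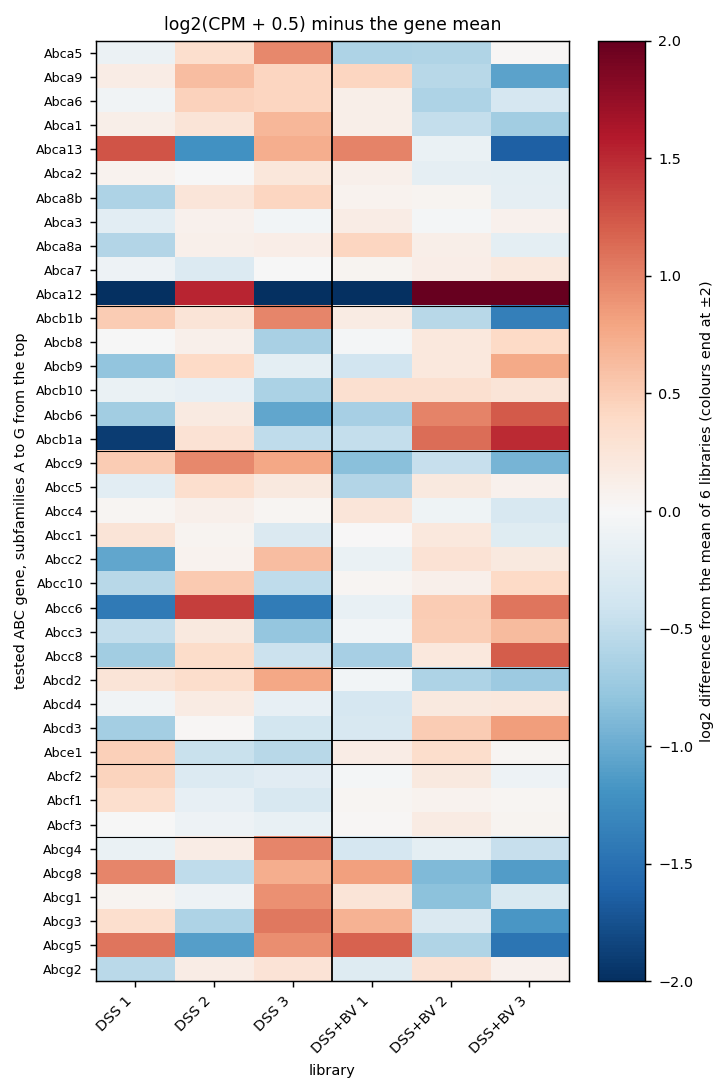
Difference of log2(CPM + 0.5) from the mean of the 6 libraries for 39 tested ABC genes, with the DSS libraries left of the line and the DSS+BV libraries right of it (red above, blue below, colours end at ±2). Abcc9 is red in all 3 DSS columns and blue in all 3 DSS+BV columns, whereas Abcb1a and Abca12 are high in DSS 2, DSS+BV 2 and DSS+BV 3 and Abcg5 and Abcg8 are low there.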

How the data were processed

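RNA from colon tissue of 6 mice was sequenced by the authors on a DNBSEQ-T7 and quantified with RSEM. The submitters' processing notes name HISAT2 2.1.0, Bowtie2 2.2.5, RSEM 1.2.8 and the build GRCm38.p6, with no role or order given. The authors deposited expected counts per gene, not scaled between libraries. Whether the kit or the counting used strand is not given in the sources used here. The labels do not state that samples of a group are separate mice. They were taken as such from the study's n, and p-values measure the spread between these samples. For 8.51% of rows at least 1 value is not whole, Abcb1a, Abcb1b, Abcc10 and Abcd4 among them.

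Expected counts were rounded, filtered with filterByExpr (minimum count 10, minimum total 15) and tested with edgeR 4.0.16 in R 4.3.3, and CPM used TMM-scaled totals. Exon lengths came from GENCODE for GRCm38, positions and promoters from RefSeq GRCm38.p6. All 49 members matched by Entrez number, and 37 had a promoter entry. Of the members, 12 share exon bases with another gene model, by at most 14.1% apart from Abcb6. The family, the partner and marker lists and the naming rule were chosen with earlier results of these data known. Named are members with a known role, those with an unadjusted p under 0.05 or separated groups, the highest member of each subfamily, and partners with an unadjusted p under 0.05 or whose member is described. Within a group the mice differed beyond counting noise (chi-square per degree of freedom 44.7 to 123). With 3 mice per group an exact two-sided permutation test cannot go below p = 0.1, so none was run. Other settings tried were upper-quartile and RLE factors, DESeq2 1.42.0, a robust fit, other filters, no fold threshold, the replicate block and each library left out. The tests were first run on simulated data. Values of 2 members and of some list genes are not reported here. Figures used matplotlib 3.10.9.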

Additional observations from a re-analysis of the deposited data

How the results depend on the processing

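No member was called with edgeR under any setting, and Abcc9 was called with DESeq2. DESeq2 gave 280 lower and 45 higher genes over the whole table against 13 and 0 with edgeR, 1 lower member, 5 members higher at an unadjusted p under 0.05 and a subfamily A median of -0.59. With every gene that had a count, 2 members were higher at that p and the subfamily A median was -0.58. Both of these subfamily A medians also cover near-absent genes that the main filter left out, so they are not over the genes of the main median. With a filter of 1 CPM in 3 libraries, 3 members were lower at that p. The cause of the changes in these counts was not tested. Kcnj8 was also called with DESeq2 alone. With 1 library left out, 0 to 3 genes of the whole table were called lower and 0 to 4 higher (4 without DSS+BV 1), 1 to 6 members were lower at an unadjusted p under 0.05 (1 without DSS 3 and without DSS+BV 2) and 1 to 8 higher (8 without DSS 2, 6 without DSS+BV 1).

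The replicate numbers did not pair the mice: the deviations of same-numbered mice correlated at 0.27, 0.25 and -0.30, and no label pairs them. With the replicate number as a block, 0 genes were called lower, 3 members were lower and 5 higher at an unadjusted p under 0.05, and Abcc9 had an adjusted p of 0.180.

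Sign changes with another tool, scaling or filter were seen for 2 of the members named, near 0. Abcf2 was at 0.019 with DESeq2, 0.012 with RLE factors, 0.032 with every gene, 0.0098 with the 1 CPM filter and 0.034 with the block, against -0.0014. Abcc1 was at 0.0083 with every gene. With 1 library left out, the sign changed for Abca13 (-1.84 to 0.042), Abcc1 (-0.16 to 0.11), Abcc2 (-0.32 to 0.73), Abcc6 (-0.0093 to 2.36), Abcf2 (-0.11 to 0.28), Abcg2 (-0.15 to 0.22), Abca8b (-0.37 to 0.12), Abcd4 (-0.025 to 0.24), Abcf1 (-0.060 to 0.29), Abcg3 (-1.15 to 0.0044), Abcc5 (-0.34 to 0.032) and Abcc4 (-0.25 to 0.032). The cause of these changes was not tested.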
